A study of Drosophila melanogaster with 8 samples.

Results

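The genes described here are the 6 dynein heavy chain genes of Drosophila melanogaster that lie on the autosomes and the X chromosome and carry a Dhc symbol: Dhc36C, Dhc98D, Dhc62B, Dhc16F, Dhc93AB and Dhc64C. They were taken by symbol from a table of 22887 features (17471 genes and 5416 transposon insertions), and all 6 were present and passed the filter on low counts. The measurements are read counts from total RNA of testes dissected from 5-day-old flies. The groups are a Tailor mutant, a Dis3L2 mutant, a double mutant of both genes, and the control strain w1118, which carries a mutation of the eye colour gene white. Tailor adds uridines to the 3′ ends of RNAs and Dis3L2 degrades RNA from that end. Each group has 2 libraries from independent dissections, and the alleles and genetic backgrounds of the mutants were not stated in the labels.

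Dynein heavy chains are very large ATPases that walk towards the minus ends of microtubules. Cytoplasmic dynein moves vesicles, RNAs and nuclei inside the cell, whereas axonemal dyneins form the inner and outer arms on the microtubule doublets of cilia and sperm tails and make them beat. In flies only sperm and the chordotonal sensory neurons, which serve hearing and proprioception, are known to build axonemes with dynein arms. Dhc64C is the heavy chain of cytoplasmic dynein and is used in nearly all cells. The other 5 are axonemal. Dhc36C, Dhc98D and Dhc16F are most like the human inner arm chains DNAH7, DNAH10 and DNAH6, Dhc62B is also of the inner arm type, and Dhc93AB is an outer arm chain known for its part in fly hearing.

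Total counts ranged from 9781275 to 30059737 per library, the 6 genes together took between 0.0413% and 0.130% of them, and ribosomal RNA features took between 1.43% and 24.6%. In the Tailor and double mutant libraries Tailor stood at 18.98 to 22.8 CPM (counts per 1e6 of scaled library size), against 82.6 to 96.8 CPM in Dis3L2 mutants and w1118. The Dis3L2 gene, listed as CG16940, stood at 89.6 and 93.9 CPM in Tailor mutants, 9.99 and 10.6 CPM in Dis3L2 mutants and 30.7 and 30.8 CPM in double mutants, against 115.0 and 117 CPM in w1118. All 6 spermatocyte markers and all 5 spermatid markers were detected in every group, summing to 121 to 157 CPM and 2377 to 3511 CPM per library. Of the 5 chordotonal markers none was at 0 over a group, but they summed to only 1.25 to 3.08 CPM.

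In the BDGP6 annotation, whose coordinates are those of dm6, all 6 are protein-coding genes whose longest transcripts run from 12090 bases in Dhc62B to 15850 in Dhc98D. Dhc36C (FBgn0013810) lies at 2L:17501401-17525515 on the plus strand and Dhc98D (FBgn0013813) at 3R:28486953-28519398 on the plus strand. Dhc62B (FBgn0013811) lies at 3L:1759172-1771758 on the minus strand and Dhc64C (FBgn0261797) at 3L:4807368-4825687 on the minus strand. Dhc93AB (FBgn0013812) lies at 3R:21024580-21042499 on the minus strand, and Dhc16F (FBgn0283476), the X-linked member, at X:18064483-18078472 on the plus strand. Introns make up 3.95% of the span of Dhc62B and 50.9% of that of Dhc98D, whose longest transcript has 47 exons against 9 in Dhc62B. The coding sequences run from 3964 codons in Dhc62B to 5080 codons in Dhc98D. Exons are shared with a neighbour over only 37 bases in Dhc62B (with CG8001, on the opposite strand) and 39 bases in Dhc64C (with CG18808, on the same strand), and CG15143 lies within introns of Dhc36C.

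Per kilobase of exon, the scale on which genes can be set side by side, Dhc36C was the highest of the 6 in every group and Dhc93AB the lowest. Dhc36C stood at 16.1 ± 5.04 CPM per kilobase in Tailor mutants, 25.9 ± 7.84 in Dis3L2 mutants, 34.8 ± 3.10 in double mutants and 29.8 ± 1.02 in w1118 (SD, n = 2 each). Dhc93AB stood at 0.150 ± 0.0195 CPM per kilobase in Tailor mutants, 0.0399 ± 0.0175 in Dis3L2 mutants, 0.220 ± 0.0353 in double mutants and 0.254 ± 0.0184 in w1118 (SD, n = 2 each). In w1118 the order was Dhc36C, Dhc98D, Dhc64C, Dhc62B, Dhc16F and Dhc93AB, and among neighbours in that order only the libraries of Dhc98D and Dhc64C overlapped. Dhc36C there exceeded 74.4% of the 11612 coding genes tested and Dhc93AB 4.43%.

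**Figure D1:**
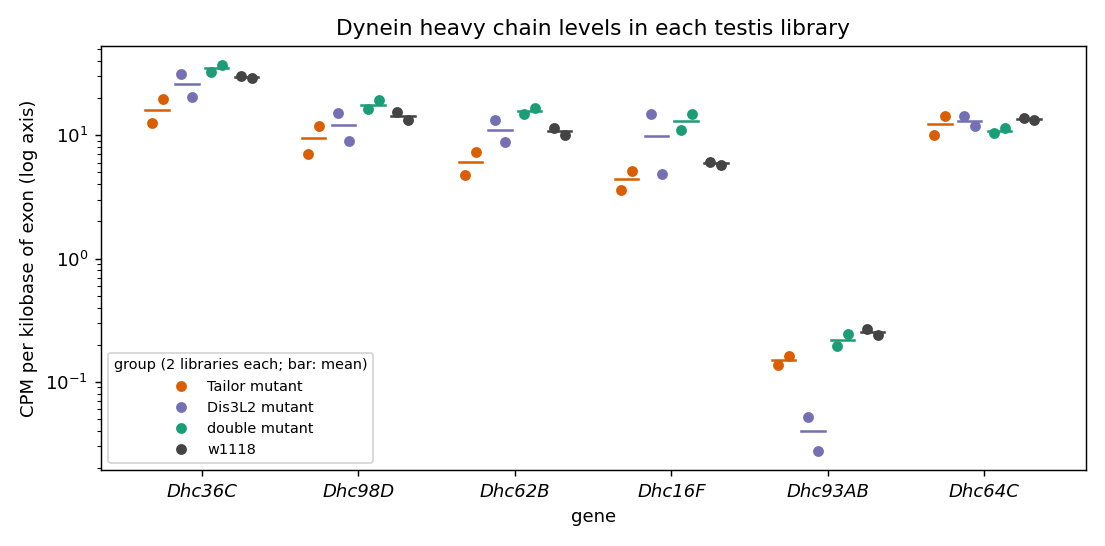
Level of each dynein heavy chain in each library, in CPM per kilobase of exon on a log axis, with 2 points per group and a bar at their mean. Dhc36C lies highest and Dhc93AB lowest in every group, and the 2 Dis3L2 mutant points of Dhc93AB lie below all its other points.

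The order of the middle genes was not the same in all groups. In double mutants Dhc64C came next to last, at 10.9 ± 0.737 CPM per kilobase, behind Dhc16F at 13.0 ± 2.71 (SD, n = 2 each), with overlapping libraries. In both single mutants Dhc64C came second, and all neighbours from Dhc64C to Dhc16F overlapped in both groups. Dhc36C and Dhc64C overlapped in Tailor mutants but not in Dis3L2 mutants. In Dis3L2 mutants Dhc16F stood at 9.92 ± 7.17 CPM per kilobase (SD, n = 2), an SD above that of Dhc16F in any other group.

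Dhc93AB, the outer arm chain, gave the largest difference among the 6 genes. It had 38 and 57 counts (1.90 and 2.29 CPM) in Tailor mutants, 11 and 9 counts (0.732 and 0.385 CPM) in Dis3L2 mutants, 85 and 33 counts (2.73 and 3.43 CPM) in double mutants, and 77 and 84 counts (3.73 and 3.37 CPM) in w1118. The Dis3L2 mutant libraries were thus below all others and did not overlap with any group, the double mutant overlapped with w1118, and the Tailor mutant lay between. Dhc93AB fell in Dis3L2 mutants relative to w1118, with a log2 fold change of -2.70 ± 0.38 (SE; 95% interval -3.58 to -1.82; edgeR quasi-likelihood test, adjusted p = 0.00704), a level 6.49-fold lower. Over both libraries the exact Poisson interval, which covers counting error only, was 0.318 to 0.805 CPM in Dis3L2 mutants and 3.01 to 4.12 CPM in w1118. In bulk tissue, fewer cells of a type and less RNA per cell cannot be told apart.

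The same Dis3L2 mutant libraries enter the other comparisons in which Dhc93AB passed the test. It rose in double mutants relative to the Dis3L2 mutant by 2.48 ± 0.38 (log2; edgeR, adjusted p = 0.0116) and in Tailor mutants relative to the Dis3L2 mutant by 1.94 ± 0.38 (adjusted p = 0.0189). The interaction compares the log2 difference between double and Dis3L2 mutants with that between Tailor mutants and w1118, and it was 3.24 ± 0.51 (95% interval 2.05 to 4.42, adjusted p = 0.0206). The double and Dis3L2 mutants also differed in RNA of the Dis3L2 gene itself, given above, which was higher in double mutants by 1.58 ± 0.11 (log2; edgeR, adjusted p = 0.000753) and had an interaction of 1.91 ± 0.15 (adjusted p = 0.00254), so that a difference between these groups cannot be assigned to the Tailor mutation alone. In double mutants Dhc93AB did not pass against w1118 (log2 fold change -0.22, interval -0.99 to 0.56, adjusted p = 0.684). In Tailor mutants it did not pass either (log2 fold change -0.76, interval -1.53 to 0.02, adjusted p = 0.35).

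The Dhc93AB calls rest on 20 counts in Dis3L2 mutants and lie near the threshold when a library is left out. The fall against w1118 lost its call when w1118 replicate 1 was left out (-2.60, adjusted p = 0.0582), w1118 replicate 2 (-2.77, 0.0512) or Dis3L2 mutant replicate 2 (-2.24, 0.0603), and over 17 alternatives its log2 fold change ran from -3.20 to -2.24. The difference between the double and Dis3L2 mutants ended without Dis3L2 mutant replicate 2 (0.0877) or double mutant replicates 1 and 2 (0.0536 and 0.0704), and that between the single mutants when any 1 of w1118 replicates 1 and 2 (0.0533 and 0.0551) or of Dis3L2 mutant replicates 1 and 2 (0.0518 and 0.118) was left out, or with only those groups in the fit (0.102). The interaction call was lost on leaving out w1118 replicate 1 or 2 (0.108 and 0.106), Dis3L2 mutant replicate 2 (0.0913) or double mutant replicates 1 and 2 (0.0702 and 0.0966), and with a replicate block (3.23, adjusted p = 0.0507). The chordotonal markers, from the other fly cells with axonemes, summed to 2.33 and 3.08 CPM in Dis3L2 mutants and 2.04 and 2.45 CPM in w1118.

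The summed markers of accessory gland and fat body were lower in the same Dis3L2 mutant libraries than in w1118. The 7 accessory gland markers summed to 2609.9 and 3510.35 CPM in Dis3L2 mutants and 11026 and 8227 CPM in double mutants, against 9746 and 9290.4 CPM in w1118, and 1 of the 7, Acp98AB, fell in Dis3L2 mutants (log2 fold change -3.42, edgeR, adjusted p = 0.0144). The 4 fat body markers summed to 77.7 and 85.8 CPM in Dis3L2 mutants and 105 and 88.6 CPM in double mutants, against 221 and 181 CPM in w1118, and 1 of the 4, apolpp, fell in Dis3L2 mutants (-1.58, adjusted p = 0.00781). Neither sum overlapped between Dis3L2 mutants and w1118. Some markers went the other way. Acp26Ab stood at 363 and 426 CPM in Dis3L2 mutants, against 307 and 317 CPM in w1118. Apoltp stood at 17.4 and 18.3 CPM, against 15.7 and 15.5 CPM, and Lsp2 at 2.06 and 2.40 CPM, against 1.60 and 1.44 CPM. Fbp1 had only 1 and 2 counts, against 0 and 3. The fat body difference thus came from apolpp, at 58.2 and 65.05 CPM, against 204 and 164 CPM. The part of these tissues in the Dhc93AB result was not tested.

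Dhc36C, the most abundant member, was low in Tailor mutants and high in double mutants. It stood at 155 and 243 CPM in Tailor mutants, 388 and 251 CPM in Dis3L2 mutants, 402 and 456 CPM in double mutants, and 376 and 359 CPM in w1118. Both Tailor mutant libraries lay below all others, the double mutant libraries lay above all others, and the Dis3L2 mutant straddled w1118. Dhc36C rose in double mutants relative to the Tailor mutant, with a log2 fold change of 1.11 ± 0.26 (edgeR, adjusted p = 0.0345). Relative to w1118 the log2 fold changes were -0.88 (95% interval -1.501 to -0.27, adjusted p = 0.178) in Tailor mutants, -0.20 (-0.82 to 0.41, adjusted p = 0.699) in Dis3L2 mutants and 0.22 (-0.39 to 0.83, adjusted p = 0.589) in double mutants.

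Dhc62B, also of the inner arm type, ordered the 8 libraries exactly as Dhc36C did. It stood at 57.5 and 88.5 CPM in Tailor mutants, 161 and 107 CPM in Dis3L2 mutants, 180 and 201 CPM in double mutants, and 140 and 121 CPM in w1118. Again the Tailor mutant libraries were the lowest and the double mutant libraries the highest, with no overlap between those groups. Dhc62B rose in double mutants relative to the Tailor mutant, with a log2 fold change of 1.38 ± 0.26 (edgeR, adjusted p = 0.0171). Relative to w1118 the log2 fold changes were -0.83 (95% interval -1.43 to -0.24, adjusted p = 0.187) in Tailor mutants, 0.04 (-0.55 to 0.62, adjusted p = 0.956) in Dis3L2 mutants and 0.54 (-0.04 to 1.13, adjusted p = 0.191) in double mutants.

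These calls of Dhc36C and Dhc62B depended on the libraries and groups in the fit. That of Dhc36C was lost on leaving out w1118 replicate 1 or 2 (adjusted p = 0.0757 and 0.0846) or double mutant replicates 1 and 2 (0.0974 and 0.175), with only the double and Tailor mutants in the fit (0.102) and with a replicate block (0.0634), and that of Dhc62B without w1118 replicate 2 (0.0503) or double mutant replicates 1 and 2 (0.065 and 0.111) and with only those groups (0.0818).

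Dhc98D, the longest coding sequence of the 6, showed the same order of group means as Dhc36C. It stood at 113 and 189 CPM in Tailor mutants, 242 and 144 CPM in Dis3L2 mutants, 258 and 305 CPM in double mutants, and 245 and 212 CPM in w1118. The Tailor mutant libraries lay below those of the double mutant and w1118 and overlapped with the Dis3L2 mutant. No comparison of Dhc98D passed the test; the difference nearest to it was that between the double and Tailor mutants, at a log2 fold change of 0.90 (95% interval 0.18 to 1.61, edgeR, adjusted p = 0.0904). Without Tailor mutant replicate 2, that difference was 1.34 and passed (adjusted p = 0.0314).

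Dhc16F, the X-linked inner arm chain, gave the largest difference between libraries of a group, in Dis3L2 mutants. It stood at 45.1 and 64.3 CPM in Tailor mutants, 187 and 60.3 CPM in Dis3L2 mutants, 137 and 185 CPM in double mutants, and 76.2 and 71.6 CPM in w1118. Dis3L2 mutant replicate 1 lay with the double mutant and replicate 2 with the Tailor mutant, so the Dis3L2 mutant overlapped with every other group. Relative to w1118 the log2 fold change was -0.43 (95% interval -1.51 to 0.65, adjusted p = 0.754) in Tailor mutants, 0.74 (-0.34 to 1.82, adjusted p = 0.383) in Dis3L2 mutants and 1.12 (0.04 to 2.21, adjusted p = 0.154) in double mutants. The Dis3L2 mutant value turned to -0.30 without Dis3L2 mutant replicate 1. With all libraries, Dhc16F differed between the double and Tailor mutants by 1.56 (interval 0.46 to 2.66, edgeR, adjusted p = 0.0665). On leaving out Dis3L2 mutant replicate 1 or 2, that value was 1.58 and 1.56. The double mutant value against w1118 was then 1.15 and 1.12. Neither left-out library belongs to these comparisons, so leaving it out mainly changes the pooled spread.

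Dhc64C, the cytoplasmic heavy chain, varied least, with a 1.42-fold range over all 8 libraries against 2.70-fold to 9.69-fold in the axonemal members. It stood at 148 and 210 CPM in Tailor mutants, 208 and 174 CPM in Dis3L2 mutants, 152 and 167 CPM in double mutants, and 202 and 196 CPM in w1118. The double mutant libraries lay below those of w1118 and of the Dis3L2 mutant, and all other pairs of groups overlapped. The log2 fold changes relative to w1118 were -0.15 (95% interval -0.58 to 0.28, edgeR, adjusted p = 0.786) in Tailor mutants, -0.06 (-0.48 to 0.37, adjusted p = 0.896) in Dis3L2 mutants and -0.32 (-0.75 to 0.11, adjusted p = 0.279) in double mutants.

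Counted by comparison, few of the 6 genes passed the test. Against w1118, 0 of 6 passed in Tailor mutants, where 2.00% of the 14246 features tested passed. There 2 members had an unadjusted p under 0.05. DESeq2 called 2 members among 506 features, against 285 features in edgeR. In Dis3L2 mutants 1 of 6 passed, Dhc93AB, where 9.22% of all features passed. In double mutants 0 of 6 passed, where 11.6% of all features did. There 1 member had an unadjusted p under 0.05. DESeq2 called 1, and its number over all features is not given here. Between mutants, 2 of 6 passed in the double against the Tailor mutant (14.7% of all features), 1 of 6 in the double against the Dis3L2 mutant (9.05%), and 1 of 6 in the Tailor against the Dis3L2 mutant (13.0%). The interaction was called in 1 of 6, against 4.08% of all features. With only 6 genes, counts of 0 to 2 are no result about the family.

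**Figure D2:**
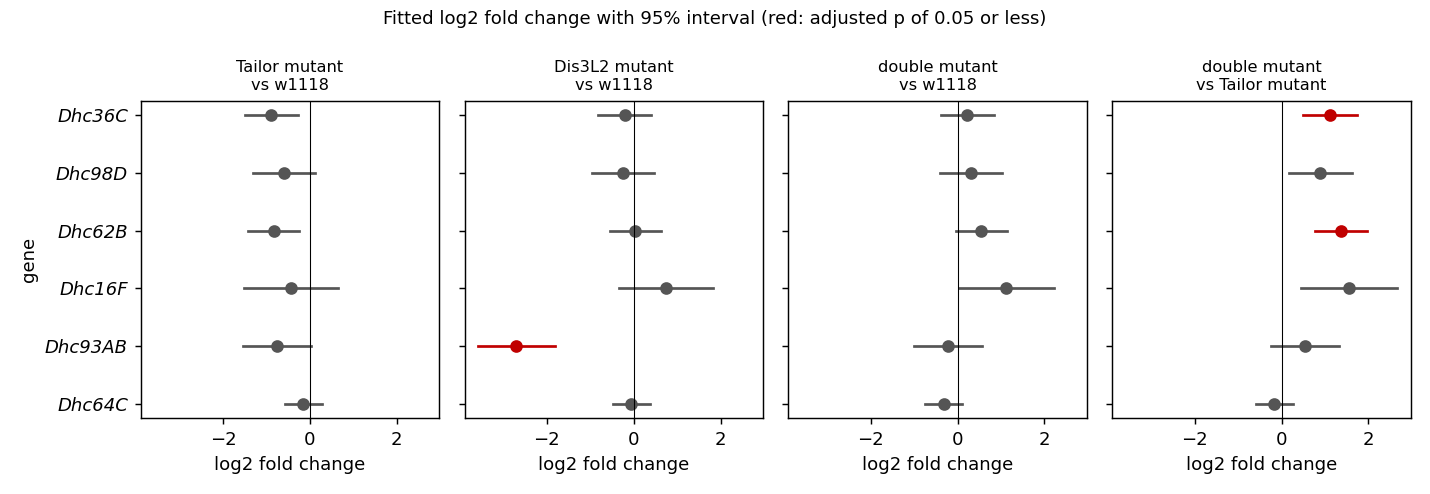
Fitted log2 fold change of each gene with its 95% interval in 4 comparisons, one panel each, with calls at an adjusted p of 0.05 or less in red. Dhc93AB is called in Dis3L2 mutants against w1118 (-2.70), and Dhc36C (1.11) and Dhc62B (1.38) in double mutants against the Tailor mutant.

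The direction in Tailor mutants was shared even though no gene passed. All 6 log2 fold changes against w1118 were below 0, from -0.88 in Dhc36C to -0.15 in Dhc64C, with a median of -0.68 against 0.02 over all features. That of Dhc64C turned to 0.090 without Tailor mutant replicate 1. Dhc16F, Dhc36C, Dhc62B and Dhc98D moved together over the 8 libraries (Pearson's r of log2 CPM 0.83 to 0.97 between pairs). Their signs are therefore not separate observations. In 5 of 6 genes, all but Dhc64C, both Tailor mutant libraries lay below both w1118 libraries, where 44.2% of all features had groups that did not overlap in one direction or the other. In Dis3L2 mutants 1 of 6, Dhc93AB, did not overlap with w1118, against 61.8% of all features. In double mutants 4 of 6 were above 0, with a median of 0.26 against -0.06 over all features, and 5 of 6 did not overlap with w1118, where 69.9% of all features did not. Between mutants, 5 of 6 did not overlap in the double against the Tailor mutant (56.5% of all features), 5 of 6 in the double against the Dis3L2 mutant (59.7%) and 3 of 6 in the Tailor against the Dis3L2 mutant (50.9%). These comparisons share libraries.

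The share of each gene in the summed counts of the 6 does not depend on how libraries are scaled. Dhc64C took 28.4% and 26.4% of these counts in Tailor mutants, 17.6% and 23.6% in Dis3L2 mutants, 13.4% and 12.7% in double mutants, and 19.3% and 20.3% in w1118. The cytoplasmic chain thus had its largest share in Tailor mutants and its smallest in double mutants, and neither group overlapped with w1118. Dhc16F took 8.67% and 8.06% in Tailor mutants, 15.7% and 8.20% in Dis3L2 mutants, 12.1% and 14.04% in double mutants, and 7.31% and 7.44% in w1118, so that every mutant library was above w1118. Dhc36C took 29.8% and 30.5% in Tailor mutants, 32.7% and 34.1% in Dis3L2 mutants, 35.5% and 34.6% in double mutants, and 36.1% and 37.3% in w1118. Here every mutant library lay below w1118, and the Tailor mutant was lowest. Shares within a fixed set depend on one another, so a lower share need not be a lower level. In double mutants the level of Dhc36C was 402 and 456 CPM, above the 376 and 359 CPM of w1118.

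**Figure D3:**
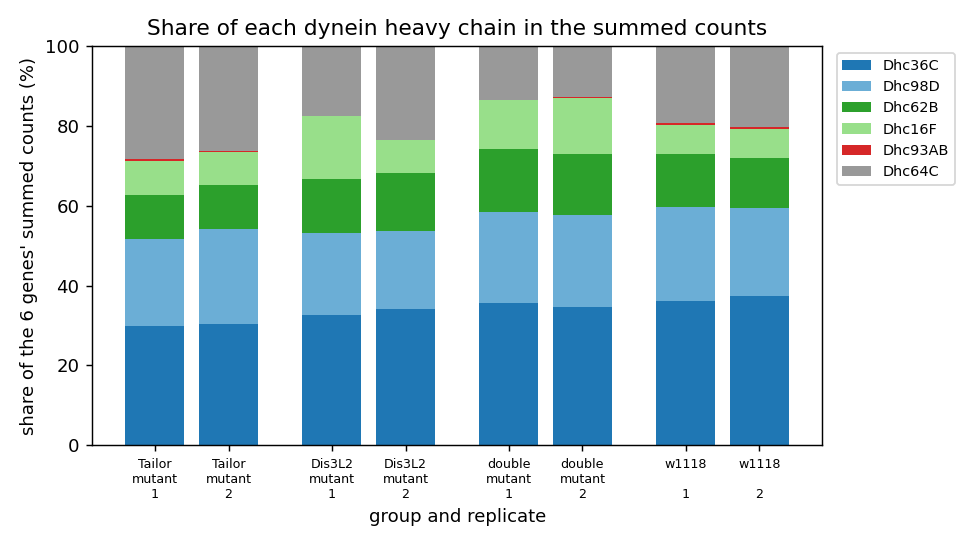
Share of each of the 6 genes in their summed counts, in percent, as 1 stacked bar per library. Dhc64C (grey) takes 28.4% and 26.4% in Tailor mutants and 13.4% and 12.7% in double mutants, and Dhc93AB (red) is barely visible in any bar.

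Summed per kilobase, the 5 axonemal members stood at 2.79 and 3.07 times the level of Dhc64C in Tailor mutants, 5.26 and 3.62 times in Dis3L2 mutants, 7.20 and 7.68 times in double mutants, and 4.62 and 4.35 times in w1118. The ratio of axonemal to cytoplasmic heavy chain RNA was therefore lowest in Tailor mutants, highest in double mutants, and on both sides of w1118 in Dis3L2 mutants. Against the 3 Y-linked heavy chains kl-2, kl-3 and kl-5, which are needed for male fertility, the same sum stood at 1.06 and 1.60 times in Tailor mutants, 1.79 and 1.499 times in Dis3L2 mutants, 2.37 and 3.03 times in double mutants, and 2.32 and 2.02 times in w1118. With 2 libraries a group an exact permutation test cannot give a two-sided p below 0.333, so these ratios are given as values only.

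The libraries of a group differed in all 6 genes at once. In Tailor mutants every member was higher in replicate 2 than in replicate 1, by log2 differences of 0.27 to 0.74, and in Dis3L2 mutants every member was lower in replicate 2, by differences of -1.63 to -0.26. In double mutants the differences were 0.14 to 0.43, and in w1118 -0.21 to -0.04. Other genes with a transcript of at least 10000 bases had medians of the same sign. These were 163 in number, without the 12 heavy chains above and below and without Dnah3, another heavy chain. Their median difference between replicates was 0.64 in Tailor mutants, -0.45 in Dis3L2 mutants, 0.24 in double mutants and -0.04 in w1118, while the median over all coding genes tested lay between -0.02 and 0.06. The Y-linked chains kl-2, kl-3 and kl-5, of similar transcript length, differed by 0.10, 0.06 and 0.02 in Tailor mutants and by -0.53, -0.68 and -0.39 in Dis3L2 mutants, with the sign of the long genes. They differed by -0.25, -0.12 and -0.06 in double mutants and by 0.01, 0.07 and 0.13 in w1118, with the opposite sign. The share of ribosomal RNA features in replicates 1 and 2 was 17.6% and 16.6% in Tailor mutants, 24.6% and 1.43% in Dis3L2 mutants, 4.65% and 10.3% in double mutants, and 7.77% and 2.42% in w1118. It thus parted the libraries of the Dis3L2 mutant most, the group in which Dhc16F differed by -1.63, and both Tailor mutant libraries lay above w1118. Its part in the results was not tested.

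**Figure D4:**
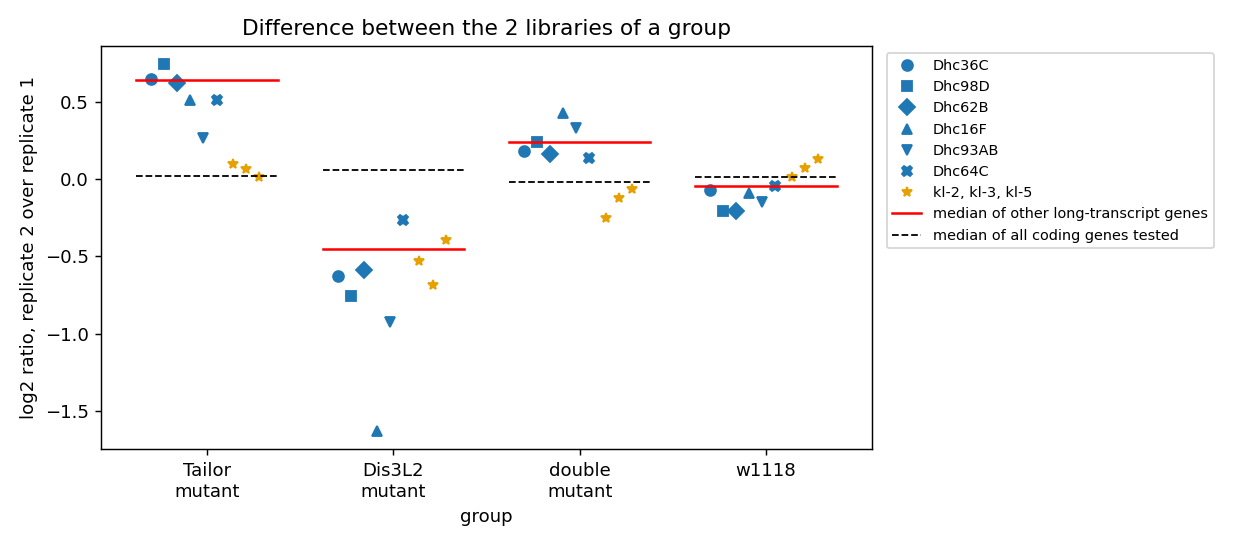
Log2 ratio of replicate 2 over replicate 1 in each group for the 6 genes (blue), the Y-linked heavy chains (stars), the median of 163 other genes with long transcripts (red line) and the median of all coding genes (dashed line). The blue points follow the red line in sign in every group, from 0.27 to 0.74 in Tailor mutants to -1.63 to -0.26 in Dis3L2 mutants.

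Between groups the medians of the long genes were near 0. Their median log2 fold change was -0.01 in Tailor mutants, -0.0013 in Dis3L2 mutants and -0.01 in double mutants against w1118, and 0.04 in the double against the Tailor mutant, where the members' median was 1.00. A fit with the level of these long genes in each library as a covariate, chosen after the data were seen, called 3 of 6 members in Tailor mutants against w1118 and 3 of 6 in double mutants, among 533 and 3122 features. Without the covariate 0 of 6 passed in each, among 285 and 1648 features. Dhc36C, Dhc62B and Dhc98D were lower in Tailor mutants in that fit (-0.85, -0.80 and -0.56, edgeR adjusted p = 0.0078, 0.0128 and 0.0423). Dhc16F and Dhc62B were higher and Dhc64C lower in double mutants (1.13, 0.56 and -0.31, adjusted p = 0.039, 0.012 and 0.0353). Dhc93AB was called in Dis3L2 mutants with it as without it (-2.71, adjusted p = 0.00364). In replicates 1 and 2 the covariate was -0.38 and 0.28 in Tailor mutants, 0.24 and -0.23 in Dis3L2 mutants, and -0.11 and 0.12 in double mutants. It thus nearly cancels within these groups and mainly takes up spread between replicates. Calls kept or gained with it are therefore no separate support. Accessory gland markers, 7 of 7 detected, also parted the Tailor mutant libraries, at 29321 and 7599.8 CPM, against 9746 and 9290.4 CPM in w1118, while testis sheath muscle markers, 6 of 6 detected, summed to 649 and 767 CPM in Tailor mutants and 463 and 432 CPM in w1118. The part of either tissue in these results was not tested.

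Among dynein heavy chains outside the 6, CG9492 was higher in all 3 mutants. Of 6 others listed, kl-2, kl-3, kl-5, btv, CG3339 and CG9492, 1 rose against w1118 in Tailor mutants, 1 in Dis3L2 mutants and 2 in double mutants, and none fell. Over all features 2.00%, 9.22% and 11.6% passed in these comparisons, so counts in a list of 6 give no result. CG9492, a homologue of the human outer arm chain DNAH5, stood at 11.4 and 14.7 CPM in Tailor mutants, 14.1 and 11.4 CPM in Dis3L2 mutants, 18.8 and 20.7 CPM in double mutants, and 6.35 and 4.69 CPM in w1118. Every mutant library was above w1118, and CG9492 rose by 1.24 ± 0.22 in Tailor mutants (edgeR, adjusted p = 0.0399), 1.21 ± 0.22 in Dis3L2 mutants (0.0188) and 1.84 ± 0.23 in double mutants (0.00518). The Y-linked kl-5 rose by 0.58 ± 0.15 in double mutants (adjusted p = 0.0444). The gene btv, which encodes the heavy chain of the dynein of intraflagellar transport, rose in double mutants relative to the Dis3L2 mutant by 1.53 ± 0.29 (adjusted p = 0.024). CG3339 fell in Tailor mutants relative to the Dis3L2 mutant (log2 fold change -0.83 ± 0.21, adjusted p = 0.0436). Over all features 9.05% and 13.0% passed in the comparisons of btv and CG3339. DESeq2 called 1 of these 6 heavy chains in that of btv and 0 in that of CG3339, so the CG3339 call was lost.

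Among 8 axonemal intermediate and light chain genes, 6 were tested, and 1 rose and 1 fell in each single mutant against w1118, while 1 rose in double mutants, where 2.00%, 9.22% and 11.6% of all features passed in the Tailor, Dis3L2 and double mutants. Dic61B, a dynein intermediate chain, ordered the 4 groups as Dhc93AB did, at 52.3 and 48.2 CPM in Tailor mutants, 26.6 and 28.1 CPM in Dis3L2 mutants, 65.1 and 69.8 CPM in double mutants, and 77.3 and 78.7 CPM in w1118. Its libraries overlapped between no groups. Dic61B lies at 3L:149679-152589, close to the Dis3L2 gene CG16940 at 3L:212709-216479, which is mutated in 2 of the groups. The part of this position, or of the unstated genetic backgrounds, in the Dic61B values was not tested. The likeness to Dhc93AB is therefore a description only. Dic61B fell by 0.63 ± 0.11 in Tailor mutants (log2; edgeR, adjusted p = 0.0407) and by 1.51 ± 0.12 in Dis3L2 mutants (adjusted p = 0.000943), and its interaction was 1.93 ± 0.16 (adjusted p = 0.00261). CG8800, listed with the light chains, stood at 8.56 and 4.90 CPM in Tailor mutants, 7.12 and 7.10 CPM in Dis3L2 mutants, 4.59 and 4.88 CPM in double mutants, and 1.26 and 1.08 CPM in w1118. It rose by 2.52 ± 0.31 in Tailor mutants (adjusted p = 0.0128), 2.60 ± 0.31 in Dis3L2 mutants (0.00447) and 2.01 ± 0.31 in double mutants (0.0106), with an interaction of -3.11 ± 0.42 (0.0152).

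**Figure D5:**
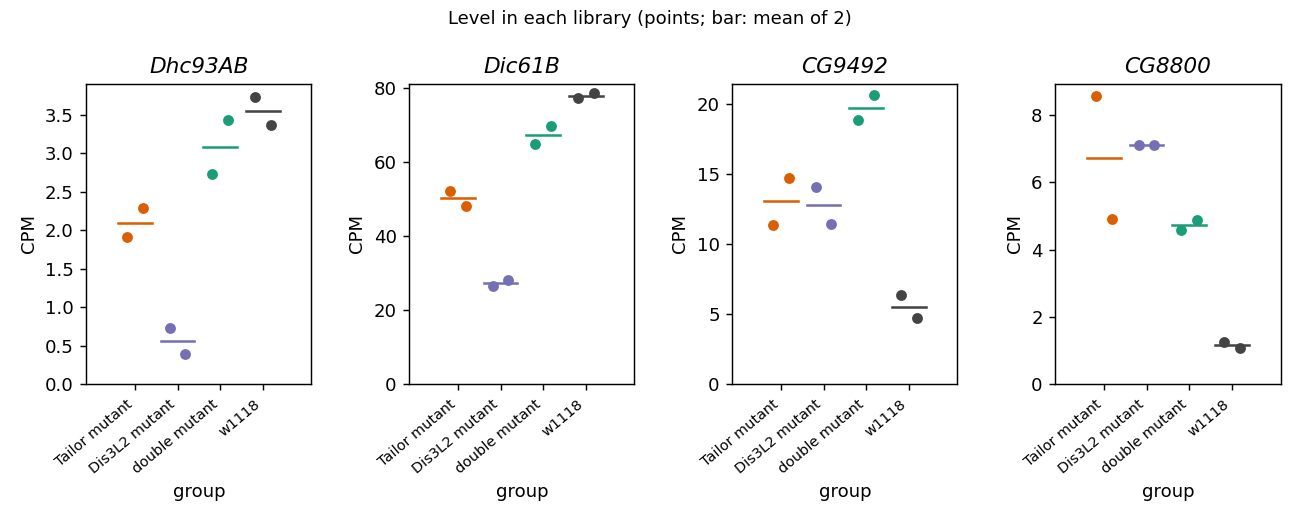
Level in CPM of Dhc93AB, the intermediate chain Dic61B, the heavy chain CG9492 and the light chain CG8800 in each library, with 2 points per group and a bar at their mean. Dhc93AB and Dic61B are lowest in Dis3L2 mutants, and CG9492 and CG8800 are higher in every mutant library than in w1118.

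Of 10 tested factors that assemble dynein arms in the cytoplasm, 0 passed against w1118 in Tailor mutants, 1 in Dis3L2 mutants and 0 in double mutants, against the same 2.00%, 9.22% and 11.6% of all features. CG17669 had the lowest p in the Tailor and double mutants (log2 fold changes -0.53 and -0.41, edgeR, adjusted p = 0.0752 and 0.0641). In the Tailor and double mutants 3 and 2 of the 10 had an unadjusted p under 0.05, and DESeq2 called 1 in each. HEATR2, an assembly factor, rose in Dis3L2 mutants by 0.54 ± 0.12 (log2; edgeR, adjusted p = 0.0315) and fell in Tailor mutants relative to the Dis3L2 mutant (log2 fold change -0.91 ± 0.12, adjusted p = 0.00525). In double mutants relative to the Tailor mutant 2 of the 10 rose, where 14.7% of all features passed. These were HEATR2 by 0.53 ± 0.12 (adjusted p = 0.028) and CG4022 by 0.55 ± 0.14 (adjusted p = 0.0388). Of the 6 intermediate and light chain genes tested, 2 rose in that comparison. These were CG1571 (0.55 ± 0.12, adjusted p = 0.0244) and Dic61B (0.42 ± 0.11, adjusted p = 0.0488). Lists of this size give no result from these counts.

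The listed partners of the cytoplasmic chain Dhc64C are the other subunits of its complex, dynactin, and regulators. Of 6 other cytoplasmic dynein subunits and 10 dynactin subunits and regulators, 0 passed in any mutant against w1118, where 2.00%, 9.22% and 11.6% of all features passed in the Tailor, Dis3L2 and double mutants, so that lists of this size give no result from these counts. The median log2 fold changes were 0.00, 0.19 and 0.03 for the subunits and 0.19, 0.28 and 0.02 for dynactin and regulators in the Tailor, Dis3L2 and double mutants. An unadjusted edgeR p under 0.05 was found for 0, 1 and 0 of the 6 subunits and for 1, 3 and 0 of the 10 dynactin subunits and regulators in the same order of mutants, and DESeq2 called 0 in each. Between mutants a few passed. Over all features 14.7% passed in the double against the Tailor mutant. The share was 9.05% in the double against the Dis3L2 mutant and 13.0% between the single mutants. The light intermediate chain Dlic fell in double mutants relative to the Dis3L2 mutant (-0.82 ± 0.17, edgeR, adjusted p = 0.0275), as did the capping proteins cpa (-0.64 ± 0.12, 0.0247) and cpb (-0.59 ± 0.14, 0.0439). BicD, an adaptor that links dynein to its cargo, fell in double mutants relative to the Tailor mutant (-0.43 ± 0.11, 0.0448) and rose in Tailor mutants relative to the Dis3L2 mutant (0.48 ± 0.11, 0.0355), where nudE, a dynein regulator, fell (-0.47 ± 0.11, 0.0309). DESeq2 called 0 of the 10 dynactin subunits and regulators in the double against the Tailor mutant, so the BicD call there was lost. It called 2 of the 10 in the double against the Dis3L2 mutant and 2 between the single mutants. Against w1118 the lowest p in Tailor mutants was that of BicD (0.45, adjusted p = 0.115) and of Dlic among the subunits (0.18, 0.71). In Dis3L2 mutants it was that of cpa (0.39, adjusted p = 0.101) and of Dlic among the subunits (0.51, 0.105).

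For each member the features most like it over the 8 libraries were ranked by Pearson's r of log2 CPM among 9526 features (9527 for Dhc93AB) with a mean of at least 5 CPM, as a description; between 20 and 46 features per member had an r above 0.95. The feature most like Dhc16F was another axonemal heavy chain, Dnah3 (r = 0.993), on 3L:4861269-4895749, 35581 bases from Dhc64C. Dnah3 stood at 92.8 and 143 CPM in Tailor mutants, 381 and 131 CPM in Dis3L2 mutants, 269 and 427 CPM in double mutants, and 170 and 139 CPM in w1118. As for Dhc16F, Dis3L2 mutant replicate 1 lay far above replicate 2, and the Dnah3 log2 fold changes against w1118 were -0.39 in Tailor mutants, 0.73 in Dis3L2 mutants and 1.17 in double mutants (edgeR, adjusted p = 0.789, 0.409 and 0.153). The features next in likeness were Trf2 for Dhc16F (r = 0.984), Hsp60B and CG32436 for Dhc36C (0.980 and 0.980), CG32767 and rin for Dhc62B (0.995 and 0.987), CG12316 and hyd for Dhc98D (0.971 and 0.970), CG14657 and Pdk1 for Dhc93AB (0.982 and 0.975), and gem and MESR4 for Dhc64C (0.982 and 0.979), where values share library depth and the spread between replicates. Hsp60B is a testis chaperone needed for male fertility.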

How the data were processed

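Per the submitters' processing notes, paired reads of 50 nt were trimmed with Trimmomatic 0.36 and aligned with HISAT2 to dm6. The authors deposited 1 raw read count per feature and library. No source used here names the counter, its annotation or its strand setting. Per the labels, libraries came from 650 ng of total RNA and 8 amplification cycles.

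The tests were run in edgeR 4.0.16 (R 4.3.3), with TMM scaling, filterByExpr with a minimum count of 10 (14246 features kept), a quasi-likelihood fit of 8 libraries on group, and Benjamini-Hochberg adjustment over all features tested, with a call at 0.05. CPM use the scaled library sizes, and levels per kilobase the union of annotated exons in BDGP6, which was matched to 17354 rows by symbol or older symbol. Fold change errors are SEs, from the fold change and the F statistic. The fit was run on simulated data with the same dispersion in every gene and no shifts of whole libraries. That run cannot show how the fit behaves with the replicate differences seen here. Named genes are the 6 members, listed genes past the test (up to 3 of the lowest p per list) and the 2 features most like each member; Dnah3 was reached by that last rule. DESeq2 1.42.0 was an alternative. The members and lists were chosen with earlier results of these data known. P-values of the main fit rest on the spread between the 2 dissections of a group, pooled over all 4 groups and estimated with information shared across features.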

Additional observations from a re-analysis of the deposited data

Results flagged for a closer look

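The interaction of Dhc93AB was 3.24 on the log2 scale (SE 0.51, edgeR, adjusted p = 0.0206): the log2 fold change was 2.48 in double mutants against the Dis3L2 mutant and -0.76 in Tailor mutants against w1118 (adjusted p = 0.0116 and 0.35). The difference between these values is what was tested. RNA of the Dis3L2 gene, CG16940, was itself higher in double than in Dis3L2 mutants (log2 fold change 1.58, adjusted p = 0.000753), with an interaction of 1.91 (adjusted p = 0.00254), so the groups differ in more than Tailor. Dhc93AB had 20 counts over the Dis3L2 mutant libraries, 118 over those of the double mutant and 161 over those of w1118.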

How the results depend on the processing

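Scalings, filters, DESeq2, the set of groups fitted, the replicate block and the long-gene covariate turned the sign of none of the 6 genes' log2 fold changes. Leaving out each library in turn turned 14 values, none of them called, and the cause was not tested. Over those fits Dhc64C ran from -0.43 to 0.090 (Tailor mutant against w1118), -0.21 to 0.10 (Dis3L2 mutant against w1118), -0.40 to 0.14 (double against Tailor mutant), -0.38 to 0.16 (Tailor against Dis3L2 mutant) and -0.32 to 0.19 (interaction). In the Dis3L2 mutant against w1118, Dhc16F ran from -0.30 to 1.36, Dhc36C from -0.56 to 0.10, Dhc62B from -0.30 to 0.33 and Dhc98D from -0.68 to 0.11. Dhc16F ran from -0.24 to 1.46 in the double against the Dis3L2 mutant, and Dhc98D from -0.78 to 0.093 in the Tailor against the Dis3L2 mutant.

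Counts of the 6 genes past the test moved more, and the counts here run in the order Tailor, Dis3L2 and double mutant against w1118, double against Tailor mutant, double against Dis3L2 mutant, Tailor against Dis3L2 mutant, and interaction. Without 1 library they ranged from 0 to 2, 0 to 1, 0 to 1, 0 to 3, 0 to 1, 0 to 3 and 0 to 3. All features called then ranged from 45 to 1113, 276 to 2513, 196 to 3537, 126 to 3769, 195 to 2844, 372 to 2521 and 70 to 1882. DESeq2 called 2, 1, 1, 4, 1, 3 and 3 of the 6, with 506 features in the Tailor mutant against w1118 and 1096 in the interaction. Its numbers over all features in the other comparisons are not given here, so its member counts there have no background. With no filter on low counts 4 passed in the double against the Tailor mutant, 2 in the Tailor against the Dis3L2 mutant and 3 in the interaction. In the main fit 14.7%, 13.0% and 4.08% of all features passed there. The shares without the filter are not given here, so these counts are no result about the family. With only the groups compared in the fit, 3 of the 6 passed in the double mutant against w1118, 0 in the double against the Tailor mutant and 0 in the Tailor against the Dis3L2 mutant, and all features called were 5, 2531, 3786, 20, 2152 and 418. The covariate, chosen after the data were seen, called 3, 1, 3, 4, 4, 3 and 4 of the 6, and 533, 2359, 3122, 3621, 2593, 2958 and 1560 features.

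Groups share replicate numbers, and deviations of same-numbered libraries correlated between -0.30 and 0.30. With 2 libraries a group this check cannot tell whether same-numbered libraries were prepared together. Counts with a replicate block are therefore given as well. With a replicate block 1 of the 6 passed in the double against the Tailor mutant and 0 in the interaction, and all features called were 152, 851, 991, 1127 and 696 in the first 5 comparisons, about 1.1e+03 (60.6% of the number without the block) in the Tailor against the Dis3L2 mutant, and 220 in the interaction. Depth limits Dhc93AB most, with 9 to 85 counts per library. Where a group is left with 1 library, that library is assumed to vary like the others.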
